A study of Mus musculus with 4 samples.

Results

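Nuclear genes for oxidative phosphorylation were examined in single mouse embryonic stem (ES) cells that had been sorted by size and plated for 6 h in 2i or N2B27. Of 46078 genes with an identifier in both count tables, 97 were taken as members. These are the protein-coding genes whose symbols begin with Ndufa, Ndufb, Ndufc, Ndufs or Ndufv (complex I), Sdh (complex II), Uqcr (complex III), Cox4, Cox5, Cox6, Cox7 or Cox8 (complex IV), or Atp5 (complex V, ATP synthase). The complexes I to V held 46, 8, 8, 18 and 17 members. Members were assigned to a complex by symbol alone, which does not show the complex a protein is found in. Subunits made up 76 of the members, 13 were assembly factors, and 8 were isoforms or paralogues better known from particular adult tissues. The choice used symbols alone and no measured value.

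All cells were E14 ES cells, a wild-type line, held before sorting in 2i, a medium whose inhibitors of MEK and GSK3 keep ES cells naive. Per the study's methods this culture also held the cytokine LIF. N2B27 alone lacks the inhibitors and LIF and lets cells leave the naive state. A gate on forward and side scatter collected small cells, which per the labels are leaving mitosis or in G1, and ungated cells served as their control. Crossing medium with gate gave 4 groups, called here 2i small, 2i ungated, N2B27 small and, last, N2B27 ungated, with 24 cells and 1 sample of the same line in each. With 1 sample in each group there was no replicate, and no test between groups is given. All differences below are differences between those samples. The 2i cells and the N2B27 cells were on separate plates and lanes, so medium and plate cannot be told apart, while the gates were compared within a plate but on different index rows.

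After filtering, 12 small and 22 ungated cells were kept in 2i and 20 small and 21 ungated cells in N2B27, with 1364155 to 4844170 counts on genes per cell. The median share of counts on the ERCC spike-ins, RNA added in a fixed amount to every cell, was 3.47% in 2i small and 2.45% in N2B27 small against 1.28% and 1.14% in the ungated groups. Cell cycle calls placed 6 of 12 and 6 of 20 small cells in G1 against 0 of 22 and 2 of 21 ungated cells. The means of the 7 ES cell markers examined were at least 20 normalized counts in every group, and those of the 6 fibroblast markers were under 1. Of 5 primitive endoderm markers none had a mean of 20 in any group. Of 5 trophectoderm markers, 2 did in N2B27 small (Krt7 51.8, Hand1 21.8), 1 in 2i small (Cdx2 24.3) and 0 in the ungated groups, each counted in 1 to 3 cells of that group. The summed trophectoderm count per cell had a median of 0 in both small groups and a highest value of 1034.5 in N2B27 small. Its part in the results was not tested. In 2i small, 2 cells stood apart. In the first, spike-ins took 40.9% of counts, and its size factor was 0.133, against 0.532 or more in any other kept cell, so each of its counts was scaled up. The second had 15712 detected genes, against 10335 or fewer elsewhere. The main values that use 2i small are therefore given with and without these 2 cells, while levels over all kept cells include them unless stated.

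Complexes I to IV pass electrons from NADH and succinate to oxygen, complexes I, III and IV pump protons as they do so, and complex V uses the proton gradient to make ATP. Complex II, which is also an enzyme of the citric acid cycle, is wholly nuclear-encoded, whereas the other complexes also need subunits made from mitochondrial DNA. Naive ES cells are known to use both respiration and glycolysis, and cells that have moved on to the primed state rely more on glycolysis. Many of the nuclear genes are known targets of the transcription factors NRF1, GABPA (an ETS factor) and YY1.

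A RefSeq promoter sequence (GRCm38.p6) was found by symbol for 78 of the 97 members. Within the 250 bases before the start, the NRF1-type motif CGCANGCG stood on either strand in 18 of the 78 (23.1%), against 9.77% of 16338 promoters of the same length. The ETS-type motif CCGGAAG stood in 15 (19.2%), against 9.52%. The YY1-type motif AAGATGGC stood in 0 of 78, against 1.52%, which says only that these letters were not in these windows. Both of the first 2 motifs stood, without overlap, in Sdhd, Atp5h, Atp5l and Cox6a1 (5.13% of members and 1.41% of promoters). A match is a description of letters and not a bound site.

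The 4 promoters shown here belong to members described below: Sdha and Sdhd, which were lower in small N2B27 cells, Atp5h, which was higher in small cells of both media, and Cox6a1, among the most abundant members per length. Each reads 5′ to 3′ on the gene's own strand, and capitals mark the NRF1-type and ETS-type matches, the latter appearing as its reverse complement.
Sdha, chr13:74350241-74350490, minus strand: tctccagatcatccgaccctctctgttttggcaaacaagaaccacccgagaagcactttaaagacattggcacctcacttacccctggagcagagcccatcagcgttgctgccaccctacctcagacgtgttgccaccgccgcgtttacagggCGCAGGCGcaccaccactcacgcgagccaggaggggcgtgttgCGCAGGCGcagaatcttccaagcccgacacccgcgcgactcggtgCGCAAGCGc
Sdhd, chr9:50603850-50604099, minus strand: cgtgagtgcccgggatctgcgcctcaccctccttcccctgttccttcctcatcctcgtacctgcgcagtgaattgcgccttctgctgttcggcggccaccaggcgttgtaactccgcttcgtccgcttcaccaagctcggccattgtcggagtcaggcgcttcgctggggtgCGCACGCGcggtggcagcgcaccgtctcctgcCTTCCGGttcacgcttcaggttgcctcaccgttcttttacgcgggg
Atp5h, chr11:115419920-115420169, minus strand: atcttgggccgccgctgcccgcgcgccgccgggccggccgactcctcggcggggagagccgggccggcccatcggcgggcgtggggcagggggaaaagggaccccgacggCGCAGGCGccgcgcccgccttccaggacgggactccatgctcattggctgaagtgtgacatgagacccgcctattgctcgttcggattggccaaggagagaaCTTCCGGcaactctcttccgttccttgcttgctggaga
Cox6a1, chr5:115348959-115349208, minus strand: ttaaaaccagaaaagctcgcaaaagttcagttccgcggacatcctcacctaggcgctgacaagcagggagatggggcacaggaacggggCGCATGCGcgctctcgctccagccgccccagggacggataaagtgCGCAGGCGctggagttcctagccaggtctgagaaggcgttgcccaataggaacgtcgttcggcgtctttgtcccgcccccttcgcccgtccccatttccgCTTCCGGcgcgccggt

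Of the 97 members, 88 had a mean of at least 20 normalized counts over the 75 kept cells, and these are the measured members below (44, 7, 8, 13 and 16 of complexes I to V). The other 9 were the subunits Ndufs5 and Atp5g2, the assembly factor Sdhaf1 and the isoforms Ndufa4l2, Cox4i2, Cox6a2, Cox7b2, Cox8b and Cox8c. Per kilobase of exon in the annotation, the highest mean levels over all kept cells were those of Cox8a (3239 normalized counts per kb), Cox6a1 (3062) and Atp5b (2595), followed by Cox6b1 (2419) and Cox4i1 (2095). Atp5b is the catalytic beta subunit of the ATP synthase head (F1), and the others are nuclear subunits of cytochrome c oxidase (complex IV). Without the 2 cells Cox6a1 fell to the fourth place (2275), since 69.3% of its 2i small sum was in the cell rich in spike-ins, and the 5 were otherwise in the same order. Among measured members the lowest levels were those of the complex II assembly factor Sdhaf3 (6.93 per kb), the complex I subunit Ndufb2 (8.70) and Atp5s (12.7), a coupling factor of ATP synthase counted here with the assembly factors. The first 2 have long annotated exon lengths that are uncertain. Per kilobase of coding sequence Atp5s was the lowest and Sdhaf3 and Ndufb2 ranked 4 and 6 from the bottom.

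Subunits of the same complex were not counted at like levels. In complex II the membrane anchor Sdhd reached 730 per kb, the iron-sulphur subunit Sdhb 315, the catalytic flavoprotein Sdha 247 and the other anchor Sdhc 98.5, a range of 7.42-fold. In F1, beta (Atp5b) was followed by gamma (Atp5c1, 1247), alpha (Atp5a1, 1238), delta (Atp5d, 433) and epsilon (Atp5e, 240), a range of 10.8-fold. These ranges depended on the length used: per kilobase of coding sequence they were 3.69-fold and 4.19-fold, and with no length correction 3.18-fold and 26.1-fold. Without the 2 cells that stood apart, alpha (1263 per kb) was above gamma (1020). The cell rich in spike-ins held 50.4% of the 2i small sum of Atp5c1.

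In N2B27, 59 of 74 measured nuclear subunits had a log2 ratio of small over ungated cells above 0. The share of all genes above 0 is not given, but their median was below 0. Past 0.5, 25 subunits (33.8%) were higher, against 24.3% of all genes. Of the 4 complex II subunits, 3 were below 0, 2 of them past 0.5, as were 32.7% of all genes. The log2 ratio of mean normalized counts, small over ungated, had a median of 0.33 over the 88 measured members, against -0.12 over the 8757 genes of any kind that reached a mean of 20. A log2 ratio over 0.5 was reached upward by 30 members (34.1%), against 24.3% of all genes, and downward by 6 (6.82%), against 32.7%. The medians were 0.41 for complex I, 0.44 for complex III, 0.33 for complex IV and 0.29 for complex V, but -0.27 for complex II. Members lay above other genes in each level class. In genes with means of 20 to 100, 100 to 300, 300 to 1000 and 1000 or more, the member medians were 0.64, 0.31, 0.32 and 0.39 and those of the other genes -0.12, -0.14, -0.15 and -0.08.

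These ratios are relative to the other genes of the cell. With size factors from the spike-ins, whose share was higher in small cells, members were lower in small N2B27 cells (median -0.62, 1 higher and 58 lower), though less so than all genes (-0.82). The gap between members and all genes was 0.46 as reported, 0.20 with spike-in factors, 0.83 for means of log2 values and 0.12 in cells called S, of which there were 11 small and 4 ungated. The part of RNA content in these differences was not tested.

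In 2i the same gap was wider, 1.05 with all cells and 0.75 without the cell with the highest spike-in share (1.07 without the cell with the most genes). The member median was 0.66, against -0.40 over all genes, with 49 members (55.7%) higher past 0.5, against 24.1%, and 11 (12.5%) lower, against 46.2%. At means of 1000 or more, 42.4% of 401 other genes were higher, a smaller share than of members. There 20.9% were lower, close to the share of members. With transcripts under 1 kb at that level, all 13 members were higher, against 71.7% of 120 other genes. At means of 300 to 1000 and under 1 kb, 71.4% of members were higher, against 59.0% of other genes. Without the 2 cells that stood apart these shares were 76.9% against 45.0%, and 47.6% against 43.8%. The cell with the highest spike-in share held over 50% of the summed normalized counts of 2i small for 23 of the 88 members and no count for 16. Without the 2 cells that stood apart the member median was 0.43 against -0.32, with 37 higher and 10 lower, against 23.1% and 43.2% of all genes. By complex the medians without these cells were 0.48 for complex I, -0.14 for complex II, 0.77 for complex III, 0.39 for complex IV and 0.44 for complex V. With all 12 cells, the gap became 0.67 with spike-in factors, 0.67 with pooled counts and 0.51 in the 5 small and 8 ungated cells called S. Unlike in N2B27, spike-in factors put members higher in small 2i cells (median 1.44, 82 higher and 1 lower), as they did all genes (0.77). These values include the cell with the most genes, whose spike-in share was 0.067%, so that its counts were scaled up strongly. The median spike-in share was higher in 2i small (3.47%) than in 2i ungated (1.28%), as in N2B27. Values with spike-in factors and without that cell are not given, so its part in the sign is not known.

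**Figure D1:**
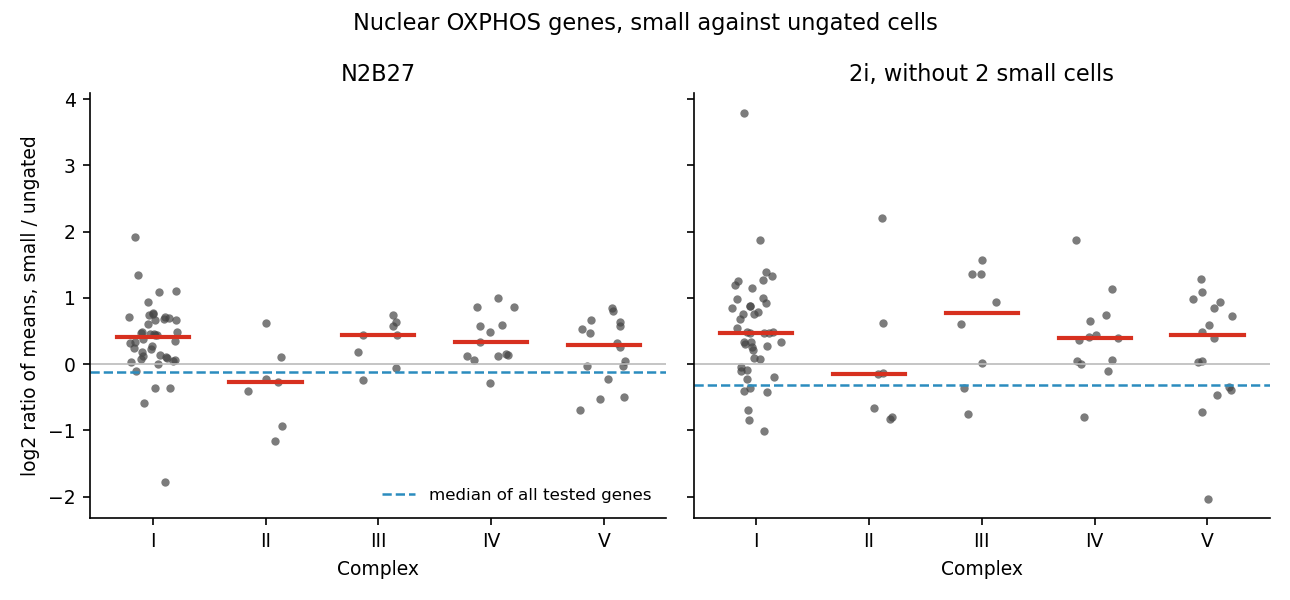
Log2 ratio of mean normalized counts, small over ungated cells, for the 88 measured members by complex (points), in N2B27 and in 2i without 2 small cells. Red lines are the medians of the complexes (in N2B27 0.41, -0.27, 0.44, 0.33 and 0.29 for I to V) and the dashed line the median of all 8757 genes; complex II alone sits below 0 in both panels.

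With the 2 cells left out, 21 members were higher in small cells past 0.5 in both media, and 2, Sdha and Ndufa9, were lower in both. Of all genes, 9.6% were higher and 18.5% lower in both. Grouped by symbol, the 21 were Ndufa2, Ndufa4, Ndufa6, Ndufa7, Ndufb2, Ndufb4, Ndufc1, Ndufaf3 and Ndufaf5 of complex I, Uqcr10, Uqcrb and Uqcrh of complex III, Cox6b1, Cox6c, Cox7a1 and Cox7a2 of complex IV, and Atp5e, Atp5h, Atp5j, Atp5l and Atp5mpl of complex V. Apart from the assembly factors Ndufaf3 and Ndufaf5 these encode small accessory or structural subunits, and Atp5e encodes the smallest subunit of F1.

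Complex II was the exception among the complexes in N2B27, but its share of lower members was not above that of all genes. Of its 7 measured members 28.6% were counted as lower, against 32.7% of all genes. In 2i without the 2 cells the shares were 42.9% and 43.2%. Sdha binds FAD and oxidizes succinate. Its normalized count ranged from 0.713 to 1448 in small cells (median 644, mean 577) and from 4.49 to 2442 in ungated cells (median 1139, mean 1102), a log2 ratio of -0.93. The ranges overlapped, with 3 of 20 small cells above the ungated median and 4 below every ungated cell. The summed counts were 13547 (95% exact Poisson interval 13320 to 13777) and 26516 (26198 to 26837), intervals that cover counting error only. In 2i the means were 741 and 1488, a log2 ratio of -1.0 (-0.80 without the 2 cells), and 1 of 12 small cells exceeded the ungated median, as did 1 of 10 without them.

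Sdhd, 1 of the 2 membrane anchors that hold the quinone site, differed by medium. In N2B27 it ranged from 0.814 to 1470 in small cells (median 301) and from 132 to 1899 in ungated cells (median 893), and the log2 ratio of means was -1.16, with 2 of 20 small cells above the ungated median. In 2i its ratio was 0.35, and -0.14 without the 2 cells. Sdhb had log2 ratios of -0.40 in N2B27 and -0.66 in 2i without the 2 cells, and Sdhc 0.11 and -0.82. Over the 4 subunits the medians were -0.67 and -0.73. Of the 4 complex II assembly factors, which insert FAD and iron-sulphur clusters, 3 were measured: Sdhaf2 had -0.22 and 0.62, Sdhaf3 0.62 and -0.14, and Sdhaf4 -0.27 and 2.20.

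In complex I the core subunits and the others parted. The 7 nuclear core subunits carry the flavin and iron-sulphur clusters along which electrons move. In N2B27 none passed 0.5. Among them Ndufv2 had a log2 ratio of 0.44, Ndufs3 0.31, Ndufs1 0.00 and Ndufv1 -0.37. The other 29 measured subunits had a median of 0.46, with 12 higher and 1 lower past 0.5. In 2i without the 2 cells the medians were -0.05 for the core and 0.54 for the others, and 15 of the others were higher and 1 lower past 0.5. Among these others the lower subunit was in both media Ndufa9 (-0.59 and -1.01), which lies near the quinone site and has 1445 bases in its principal transcript.

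Ndufc1, a small accessory subunit, showed the opposite pattern to Sdha. It ranged from 4.10 to 2234 in small N2B27 cells (median 415) and from 66.5 to 639 in ungated ones (median 334), a log2 ratio of means of 1.09, and 6 of 20 small cells exceeded every ungated cell. In 2i, 6 of 12 small cells did so, and without the 2 cells 4 of 10 did and the ratio was 1.87. Ndufb2, another accessory subunit, had the largest ratio in 2i at 4.78 (3.80 without the 2 cells), but at means of 228 and 7.32. Its count in the cell rich in spike-ins was 1575, or 57.5% of its 2i small sum. In the 10 small 2i cells left without the 2, its median was 8.09 and its highest count 1028, so 3.80 rested largely on 1 further cell.

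The 8 complex I assembly factors, which build the complex and are not part of it, varied more. In N2B27 the highest were Ndufaf3 (log2 ratio 1.92) and Ndufaf5 (1.35), and the lowest Ndufaf7 (-1.77). All 3 rested on few cells: in small N2B27 cells the median of Ndufaf3 was 88.2 and its highest cell 2409, that of Ndufaf5 3.52 and 968, and that of Ndufaf7 0 and 462. In 2i without the 2 cells their ratios were 1.33, 0.79 and 0.34, so that of Ndufaf7 was of the other sign.

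Complex III divided in the same way as complex I. Uqcrc1 and Uqcrc2, the large core proteins, had log2 ratios of -0.24 and 0.19 in N2B27 and -0.75 and -0.36 in 2i without the 2 cells, and the Rieske iron-sulphur protein Uqcrfs1 had -0.05 and 0.01. The small subunits Uqcr10, Uqcr11, Uqcrb, Uqcrh and Uqcrq had 0.43 to 0.74 in N2B27 and 0.61 to 1.57 in 2i without the 2 cells. With all 12 small 2i cells, Uqcr10 ranged from 502 to 11911 in small (median 911) and from 364 to 1123 in ungated 2i cells (median 627). Of the small cells, 10 of 12 lay above the ungated median and 5 above every ungated cell. Without the 2 cells its highest small cell had 8509, and 4 of 10 lay above every ungated cell. In Uqcrb, which binds quinone together with the mitochondrially encoded cytochrome b, 8 of 12 and 8 of 20 small cells exceeded every ungated cell of their medium, in 2i 7 of 10 without the 2 cells.

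In complex IV the small subunit Cox7a2 had the highest ratio in N2B27, 1.00, but -0.059 with no cell filter. It ranged from 460 to 4524 in small cells (median 1382) and from 468 to 1388 in ungated cells (median 941), and 10 of 20 small cells exceeded every ungated cell. In 2i its ratio was 2.91 with all cells and 0.75 without the 2, since the cell rich in spike-ins held 79.8% of the sum, and -0.0076 in cells called S. Cox7b (0.86), Cox6b1 (0.59) and Cox6c (0.58) were higher as well in small N2B27 cells, and Cox8a had 0.49. The assembly-initiating subunit Cox4i1 had -0.28, and Cox6a1 0.12.

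In ATP synthase the F1 head was itself divided. Atp5b, Atp5a1 and Atp5d were below 0 in both media, Atp5e was above 0 in both, and Atp5c1 differed in sign. Atp5b ranged from 637 to 16757 in small N2B27 cells (median 7744) and from 7956 to 14783 in ungated cells (median 12403), so that 10 of 20 small cells lay below every ungated cell and 2 above. Its log2 ratio was -0.52 in N2B27 and -0.57 in 2i (-0.38 without the 2 cells). Atp5a1 had -0.49 in N2B27 and -0.89 in 2i (-0.72), with 8 of 20 and 7 of 12 (5 of 10) small cells below every ungated cell. Atp5d had -0.69 and -0.59 (-0.46), Atp5c1 -0.22 and 1.28 (0.40), and the short Atp5e 0.80 and 0.45 (0.60). Of the isoforms of the proton-carrying c-ring, Atp5g1 had 0.26 in N2B27 and Atp5g3 -0.03. The other subunits of the stalks and membrane part, Atp5f1, Atp5h, Atp5j, Atp5j2, Atp5k, Atp5l, Atp5mpl and Atp5o, had 0.05 to 0.85 in N2B27 and 0.03 to 1.29 in 2i without the 2 cells.

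**Figure D2:**
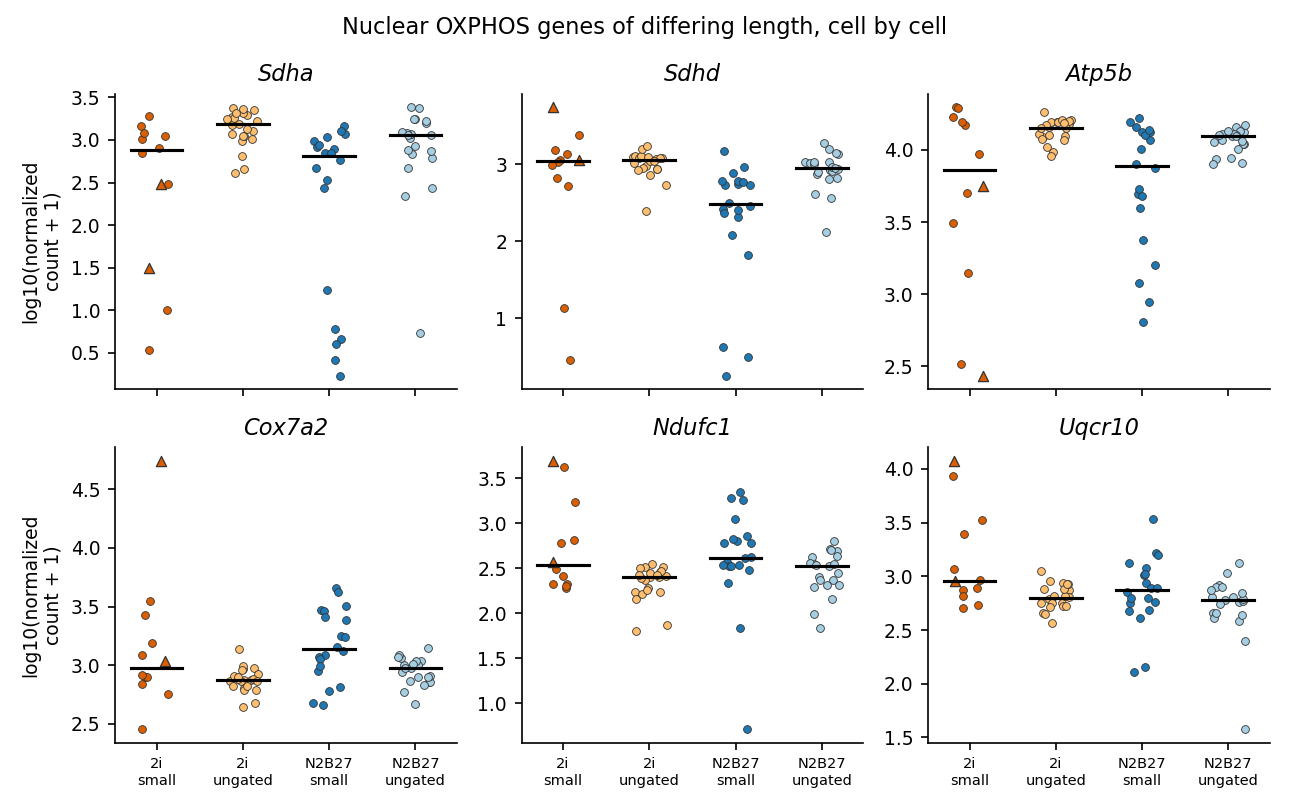
Normalized count plus 1 (log10 axis) of Sdha, Sdhd, Atp5b, Cox7a2, Ndufc1 and Uqcr10 in every kept cell of the 4 groups; lines are medians and triangles the 2 small 2i cells that stood apart. Small cells spread more widely than ungated cells, downward for Sdha and Atp5b and upward for Cox7a2 and Ndufc1.

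The members that were higher in small cells were mostly the short ones. Transcript length here is that of the principal annotated transcript, which had a median of 931.5 bases in the measured members against 2557.5 in all genes. In N2B27 the 47 members under 1 kb had a median log2 ratio of 0.49, with 23 higher (48.9%) and 0 lower past 0.5, against 29.3% and 11.4% of the 1104 other genes under 1 kb. The medians were 0.13 in the 30 of 1 to 2 kb, 0.03 in the 8 of 2 to 4 kb and 0.62 in the 3 above 4 kb. Other genes in these classes had medians of 0.21, -0.20, -0.32 and 0.08, below the members in each class. In 2i without the 2 cells the member medians were 0.73, 0.09, -0.55 and 0.04, and those of other genes 0.28, -0.37, -0.54 and -0.21, nearly equal at 2 to 4 kb. Matched on both length and level, the 21 members under 1 kb with means of 300 to 1000 had 0.58 in N2B27 against 0.24 in 210 other genes, and the 18 of 1 to 2 kb had 0.14 against -0.19 in 468. At means of 1000 or more, the 13 under 1 kb had 0.53 against 0.29 in 120 other genes, but the 5 of 1 to 2 kb had -0.22 against -0.14 in 149.

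Across the 88 members, the Spearman rank correlation of transcript length with the log2 ratio was -0.41 in N2B27 and -0.45 in 2i without the 2 cells (with coding length -0.53 and -0.56). Across 8656 other genes it was -0.0044 and -0.090. Genes measured in the same libraries are not independent, and these values are descriptions. Some annotated principal transcripts, among them those of Ndufb2 (4371 bases) and Atp5g1 (4715 bases), are much longer than the coding part.

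**Figure D3:**
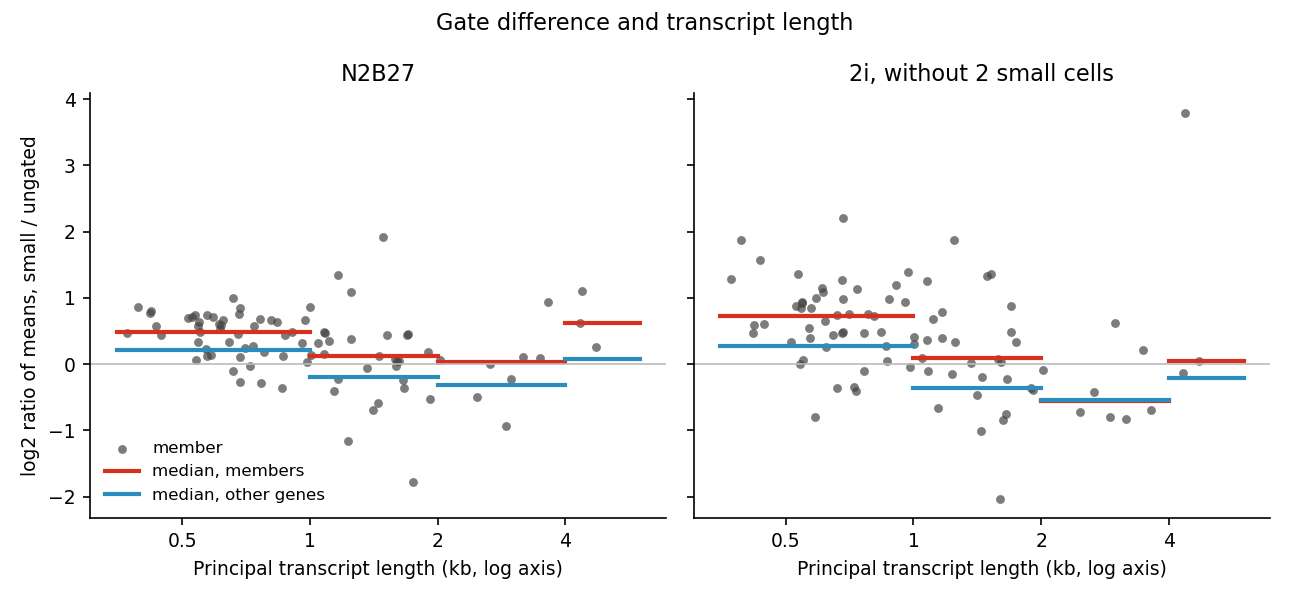
Log2 ratio of means, small over ungated cells, against principal transcript length (log axis) for the 88 measured members, in N2B27 and in 2i without 2 small cells. Red and blue lines are the medians of members and of other genes in length classes bounded at 1, 2 and 4 kb; in N2B27 the members lie above other genes in each class, from 0.49 against 0.21 under 1 kb to 0.03 against -0.32 at 2 to 4 kb.

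In single cells, members together took 2.76% to 4.58% of the counts on genes in 2i small (median 3.42%), 2.55% to 3.10% in 2i ungated (2.76%), 1.86% to 4.61% in N2B27 small (2.96%) and 2.30% to 3.20% in N2B27 ungated (2.77%). In each medium 8 small cells exceeded every ungated cell, 8 of 12 in 2i (6 of 10 without the 2 cells, with a highest share of 3.95%) and 8 of 20 in N2B27, and 1 small N2B27 cell lay below every ungated cell. Among small N2B27 cells the median was 3.42% in the 6 called G1, 2.87% in the 11 called S and 2.46% in the 3 called G2M. In cells called S the N2B27 medians were close, 2.87% small and 2.85% ungated. In 2i they were 3.30% in 5 small cells, the one with the most genes included, and 2.76% in 8 ungated cells.

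The ratio of counts on members under 1 kb to counts on longer members was also higher in small cells. Its median was 1.06 in 2i small (0.922 without the 2 cells) and 0.577 in 2i ungated, and 1.22 in N2B27 small and 0.764 in N2B27 ungated. In 2i 8 of 12 (6 of 10) and in N2B27 11 of 20 small cells exceeded every ungated cell. Within N2B27 small this ratio went with the spike-in share of the cell (Pearson's r = 0.85 and Spearman's rho = 0.83 over 20 cells), as did the summed share (0.73 and 0.78). Over the 21 ungated N2B27 cells the ratio had 0.25 and 0.30 and the summed share -0.30 and -0.37. These cells share a plate and a library run, and both measures are parts of the same counts. The part of RNA content in the ratio was not tested.

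Shares of single complexes differed in direction. In N2B27, complex I took a median of 0.975% in small and 0.802% in ungated cells and complex IV 0.591% and 0.511%, whereas complex II took 0.0977% and 0.141% and complex V 0.975% and 1.02%. The 13 mitochondrially encoded subunits took 2.07% in N2B27 small and 2.29% in N2B27 ungated, and 2.53% and 2.43% in 2i. Across the cells of a group the nuclear and the mitochondrial share were weakly related, with Pearson's r from -0.24 to 0.18 (0.29 in 2i small without the 2 cells).

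**Figure D4:**
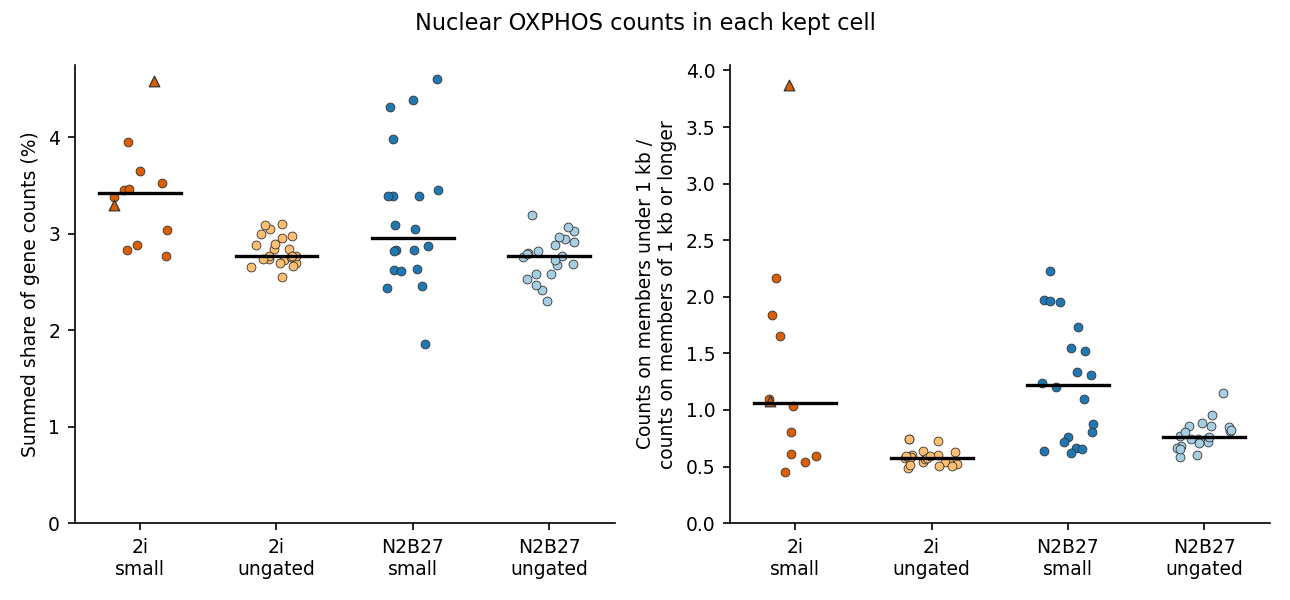
Each point is a kept cell; triangles are the 2 small 2i cells that stood apart and lines are medians. Left, summed share of members in the counts on genes (%), with medians of 3.42, 2.76, 2.96 and 2.77; right, counts on members under 1 kb over counts on longer members, with medians of 1.06, 0.577, 1.22 and 0.764, the small groups reaching above the ungated ones.

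Between the media, members of ungated cells lay close to the other genes. The median log2 ratio of N2B27 over 2i was 0.12 over members and -0.03 over all genes, with 11 members (12.5%) higher past 0.5, against 19.2% of genes, and 7 (7.95%) lower, against 23.0%. The highest were the assembly factor Sdhaf4 (1.05), the muscle-type subunit Cox7a1 (1.02) and the complex I subunit Ndufb3 (0.86). Ndufb3 ranged from 59.3 to 241 in 2i ungated (median 145) and from 69.8 to 549 in N2B27 ungated (median 231), so the ranges overlapped. The lowest were the complex I assembly factors Ndufaf4 (-1.23) and Ndufaf8 (-0.89) and the core protein Uqcrc1 (-0.72). Uqcrc1 ranged from 2320.4 to 5070 in 2i (median 3296) and from 497 to 3349 in N2B27 (median 2262). The medians by complex were 0.13, -0.20, 0.11, 0.30 and -0.03 for I to V, and in members of 1 kb or longer the gap to all genes was -0.091.

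Between small cells the outcome rested on the 2 cells that stood apart. The median was -0.31 over members and 0.11 over all genes, with 12 members (13.6%) higher, against 36.6%, and 37 (42.0%) lower, against 28.9%. Without them it was -0.02 against 0.09, with 12 higher and 15 lower, against 34.5% and 27.3% of all genes. The lowest were Ndufb2 (-3.06, and -2.08 without them), Ndufb5 (-2.94 and -0.30) and Atp5mpl (-2.33 and -0.02). The cell rich in spike-ins held 85.6% of the 2i small sum of Ndufb5 and 81.9% of that of Atp5mpl. For Ndufb2 the 10 small 2i cells left without the 2 had a median of 8.09 and a highest count of 1028. The highest were Ndufb3 (1.18 and 1.06), Ndufaf5 (1.06 and 0.90) and Ndufaf6 (1.04 and 0.93).

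The isoforms of particular tissues mostly had few counts or none. Cox4i2 (lung), Cox8b (muscle and heart) and Cox7b2 had no count in any of the 75 kept cells. Cox6a2 was counted in 1 cell each of 3 groups, as were Cox8c and Ndufa4l2, with no cell above 119 normalized counts, beside Cox6a1, Cox8a and Ndufa4 at group means of 858 to 5143 (to 2493 without the 2 cells). The testis form Cox6b2 was counted in all 22 cells of 2i ungated and in 10 of 12, 16 of 20 and 20 of 21 cells of 2i small, N2B27 small and N2B27 ungated. It made up 5.82% of Cox6b1 and Cox6b2 in 2i ungated, 5.30% in N2B27 small and 7.12% in N2B27 ungated. In 2i small it made up 17.6%, and 2.19% without the 2 cells. The muscle form Cox7a1 made up 5.96% of Cox7a1 and Cox7a2 in 2i ungated, 9.12% in N2B27 small, 9.91% in N2B27 ungated and 2.77% in 2i small (12.5% without the 2 cells).

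For some members most reads were counted on a copy. Processed pseudogenes, which are intronless copies of mRNAs, matched the transcripts of 20 members over at least 200 bases at 95% identity or more, and for 19 of them a copy was in the count tables. Ndufs5, a complex I subunit, had 1126 counts of its own over the kept cells and its copy BC002163 had 42686, so 2.57% of the joint counts were on the member. The share was 13.0% for Atp5l, with 5 copies, mainly Gm10221, 13.6% for Atp5g2 and 24.5% for Atp5g1, whose copy Gm10039 had 110369 counts. It lay between 27.5% and 58.3% for Atp5h, Ndufab1, Ndufa12, Ndufs3, Atp5o and Ndufb4, and between 63.8% and 99.5% for the other 9. Reads from such pairs may have been split by the alignment, so the levels of these members are uncertain. With the copies joined, the N2B27 gate ratio of Ndufs5 went from -0.56 to 0.34 and that of Atp5g2 from -1.23 to -0.48, and the ratio of Ndufa12 from 0.35 to 0.54. The median over members moved from 0.33 to 0.36.

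**Figure D5:**
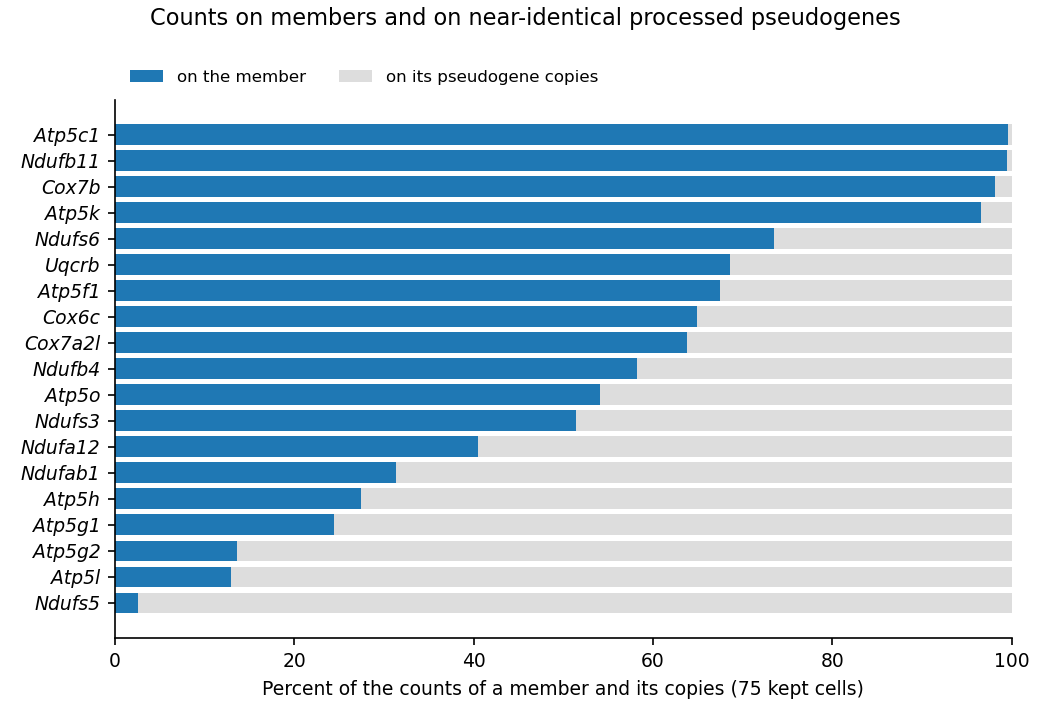
Percent of the counts of a member and its near-identical processed pseudogenes that fell on the member (blue) and on the copies (grey), over the 75 kept cells, for 19 members. Ndufs5 has the lowest part at 2.57% and Atp5c1 the highest at 99.5%.

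Other genes of the pathway, which are no members, are read against all genes, of which 24.3% were higher and 32.7% lower in N2B27 (median -0.12) and 23.1% and 43.2% in 2i without the 2 cells (-0.32). Of 14 citric acid cycle enzymes 1 was higher and 5 lower past 0.5 in small N2B27 cells (median -0.30), among them citrate synthase (Cs, -1.02), and 1 was higher and 6 lower in 2i without the 2 cells (-0.42). Of 14 measured genes for electron carriers and quinone synthesis, 2 were higher and 2 lower in N2B27 (-0.14) and 2 and 8 in 2i (-0.58). Of 26 assembly factors outside the set, 6 were higher and 9 lower in N2B27 (-0.17) and 8 and 6 in 2i (0.08). Of the 9 measured regulators, 2 were higher and 3 lower in N2B27 (-0.09) and 1 and 4 in 2i (-0.01). In N2B27 the medians of these 4 lists lay within 0.18 of that of all genes, and in 2i those of the assembly factors and regulators lay 0.40 and 0.31 above it. Nrf1 had -0.09 and -0.96 and Gabpa 0.06 and 0.90. Yy1 had a mean of 836 in 2i small and 13.9 in 2i ungated, but 0.239 in 2i small without the 2 cells.

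The 10 measured mitochondrially encoded subunits had medians of -0.08 in N2B27 and 0.34 in 2i without the 2 cells. The 80 genes for cytoplasmic ribosomal proteins, which are also short and abundant, had 0.27 and 0.47, near the members' 0.33 and 0.43. Members with and without the NRF1-type motif had N2B27 gate medians of 0.35 (16) and 0.38 (57), and those with and without the ETS-type motif 0.43 (15) and 0.35 (58). In 2i without the 2 cells the medians were 0.76 and 0.42 for the NRF1-type and 0.60 and 0.45 for the ETS-type motif.

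Variation among cells was lower in members than in other genes of like level where levels were moderate. At means of 300 to 1000, the median coefficient of variation over kept cells was 0.333 in 43 members and 0.496 in 1372 other genes in 2i ungated, 0.473 and 0.674 in N2B27 ungated, and 0.742 and 1.00 in N2B27 small. At means of 1000 or more the order was reversed in small cells: 0.694 in 20 members and 0.608 in 401 other genes in N2B27 small, and 0.725 and 0.620 in 2i small without the 2 cells.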

How the data were processed

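Smart-seq2 libraries, which read whole transcripts and carry no molecular identifiers, were made from 96 single cells. The authors trimmed reads (Trim Galore 0.4.4), aligned them to GRCm38/mm10 with GSNAP, counted them on Ensembl genes with HTSeq and deposited raw counts per gene, unnormalized. HTSeq drops reads that overlap more than 1 gene. Counts on genes made up 72.4% of all counts, those on spike-ins 3.85%, and the remaining 23.8% named neither and were left out.

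Cells were filtered per plate at 3 median absolute deviations (scater 1.30.1 in R 4.3.3), size factors came from DESeq2 1.42.0 and phases from cyclone in scran 1.30.0. Doublets were not called. Further steps used Python 3.11.15, numpy 2.4.6, scipy 1.17.1 and pandas 2.3.3, and figures matplotlib 3.10.9. Log2 ratios are of mean normalized counts over kept cells with a pseudocount of 1, for genes with an overall mean of at least 20, and a ratio past 0.5 in size was counted. Pseudogene copies were found with BLAST 2.17.0 against annotated transcripts (GENCODE M21). Ratios were checked on simulated data. No p-value was computed, since each group is 1 sample. Poisson intervals cover counting error only.

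Named with values by rule were the complex I core, complex II, F1 and c-ring subunits, the tissue isoforms with their partners, and the 3 members with the largest ratio in each direction of each comparison; other members were named after their values were seen, and some core subunits are not reported here. The members and gene lists were chosen with earlier results of these data known, and the length classes and pseudogene copies were examined, and the 2 cells left out 1 at a time, after seeing the data. Alternatives covered the cell filter, the normalization (CPM, scran, DESeq2 poscounts, spike-ins), pooled or log2 summaries, thinning to 1500000 counts, phase, pseudocounts of 0.5 and 5, minimum means of 1 and 100, a log2 ratio of 1, and the member list.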

Additional observations from a re-analysis of the deposited data

Results flagged for a closer look

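For 4 members the difference between media had opposite signs past 0.5 in small and in ungated cells; whether the gates differ could not be tested with 1 sample per group. The log2 ratio of N2B27 over 2i was -2.33 in small and 0.53 in ungated cells for Atp5mpl, a small membrane subunit of ATP synthase. It was -2.03 and 0.53 for Cox6b2, and -3.06 and 0.62 for Ndufb2. For Sdhaf4, an assembly factor of complex II, it was -1.21 and 1.05. In small 2i cells, 81.9% of the summed normalized counts of Atp5mpl, 91.3% of those of Cox6b2 and 57.5% of those of Ndufb2 were in the cell with the highest spike-in share, whereas Sdhaf4 had no count there. Without the 2 cells that stood apart the small-cell ratios were -0.02, 1.46, -2.08 and -1.42 for Atp5mpl, Cox6b2, Ndufb2 and Sdhaf4. That of Ndufb2 rested largely on 1 further small 2i cell, with 1028 normalized counts against a median of 8.09.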

How the results depend on the processing

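No paired analysis was possible because the labels carry no replicate numbers and each group is 1 sample, so no replicate could be left out either. Values are the member median of the log2 ratio minus that of all genes. For small against ungated cells in N2B27 it was 0.46. It was 0.59 with poscounts factors, 0.20 with spike-in factors, 0.83 for means of log2 values, 0.12 in S cells, 0.61 for members under 1 kb and 0.24 for longer ones. It stayed positive under all 20 alternatives, though leaving out the 2 small 2i cells could not change it. In 2i it was 1.05, and 0.67 with spike-in factors, 0.67 with pooled counts, 0.51 in S cells, 1.67 under 1 kb and 0.36 for longer members, again positive under all 22. For N2B27 against 2i in ungated cells it was 0.15, and 0.52 for means of log2 values, 0.27 in S cells, 0.25 under 1 kb and -0.091 for longer members. In small cells it was -0.42, and -0.11 without the 2 cells that stood apart, -0.090 without the one rich in spike-ins alone, -0.19 with CPM, -0.053 with pooled counts, 0.12 for means of log2 values, -0.088 when thinned (3 shallower cells left out), 0.079 in S cells, -0.81 under 1 kb and -0.15 for longer members. The cause of these shifts was not tested.

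Counts of members past 0.5 ran, over the alternatives, from 5 to 54 higher and 0 to 12 lower for the gate in N2B27. They ran from 11 to 55 and 0 to 18 for the gate in 2i. For medium they ran from 1 to 43 and 1 to 18 in ungated cells, and from 4 to 33 and 10 to 43 in small cells. These ranges include the cutoff of 1 and the shorter member lists. In them the other normalizations and the pooled and log2 summaries were first set to the main median of all genes. Without that step spike-in factors gave 1 higher and 58 lower for the gate in N2B27. They gave 82 and 1 for the gate in 2i, and 0 and 88 for medium in small cells. Both of these include the small 2i cell with the most genes, whose spike-in share was 0.067% and whose counts spike-in factors scale up. With copies joined the median summed share was 3.75%, 2.99% and 3.01% in 2i small, 2i ungated and N2B27 ungated, and subunits alone gave 2.73% in 2i ungated. The range in complex II was 3.69-fold by coding length and 3.18-fold without length, and that in F1 4.19-fold and 26.1-fold. With no cell filter Cox6b2 made up 24.0% of its pair in N2B27 ungated and Cox7a1 46.8% in 2i small.

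Among the members named by rule with a main ratio past 0.5, single genes changed sign as follows. For medium only the 3 largest ratios in each direction were checked. Sign changes outside these, such as that of Cox6b2 for medium in small cells, are not listed. Values with other normalizations and for pooled or log2 summaries were first set to the main median of all genes. Their signs hold relative to that median only. With no cell filter, Cox7a2 had -0.059 for the gate in N2B27; for the gate in 2i Atp5d had 0.068, Ndufaf5 -0.17 and Sdha 1.65; for medium Ndufaf8 had 4.16 in ungated (4.18 with fixed limits) and Ndufb3 -2.83 in small cells. For the gate in 2i, Cox4i1 had -0.11 without the 2 cells, -0.033 with CPM, -0.10 with pooled counts and -0.040 without its highest cells. Cox6b2 had -0.80 without the 2 cells, -0.54 for means of log2 values, -0.52 without its highest cells and -0.16 in S cells. Ndufaf8 had -0.38 with spike-in factors, -0.66 for means of log2 values, -0.31 without its highest cells and -0.64 in S cells. Cox8a had -0.0069 with pooled counts and Sdhc 0.31 with spike-in factors. In S cells Cox7a2 had -0.0076 and Ndufa4 -0.025 for the gate in 2i, and Atp5mpl had 0.39, Ndufb2 1.04 and Ndufb5 0.29 for medium in small cells. Over all counts of members and the single genes checked, 1182 values stayed on their side of 0.5 (for counts, within 1.5 times) and 232 did not. These 26, all past 0.5 in the main values, changed sign.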
